A study of Mus musculus with 8 samples.

Results

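CD8 and CD4 T cells that lacked STAT3 were compared with each other, to ask which transcripts differ between both T cell lineages when this transcription factor has been removed. The comparison rests on 4 of the 8 libraries of the series, 2 of STAT3KO CD8 and 2 of STAT3KO CD4 T cells, and it was made across all genes of the deposited count table. The donors of these libraries were C57BL/6 mice with floxed Stat3 and the CD4-Cre transgene, so STAT3 had been removed from CD4 and CD8 T cells alike and every group in this comparison carries that deletion. Their T cells were transplanted into lethally irradiated WT BALB/c recipients, in which they meet foreign tissue. Bone marrow of WT C57BL/6 donors, depleted of T cells, was given with them. On day 6 donor cells carrying H-2Kb and the T cell receptor were sorted from the spleen as CD4+ or CD8+. Each library combines cells of several recipients, so a replicate is a pool and not 1 animal. The other 4 libraries, 2 of WT CD8 and 2 of WT CD4 T cells from donors with intact STAT3, were collected the same way and are given beside the STAT3KO values as the reference.

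CD4 and CD8 T cells leave the thymus with opposed programmes. The transcription factor ThPOK, encoded by Zbtb7b, keeps the helper fate, in which cells display CD40 ligand and release cytokines that instruct B cells and other leukocytes. Runx3 keeps the cytotoxic fate, in which perforin opens the target cell and granzymes kill it. STAT3 carries signals of interleukin-6 and interleukin-21 and is known for its part in follicular helper T cells, the CD4 cells that help B cells in germinal centres.

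The 4 STAT3KO libraries held between 20352147 and 22473324 counts, and the upper limit for a gene with no count, set at 3 counts, lay between 0.134 and 0.147 CPM (counts scaled to the size of the library), for counting error only. Replicates of a group differed by more than sampling noise. Values by library are CPM scaled by TMM (a factor per library that keeps most genes level), in the order replicate 1 and replicate 2, and in bulk samples fewer cells of a type cannot be told apart from less RNA per cell. Summed marker lists of other cell types are CPM by column total. The 16 genes of a pancreatic acinar cell list summed to 103 CPM in STAT3KO CD8 replicate 2 and to between 4.88 and 14.6 CPM in the other 3 STAT3KO libraries. A macrophage and monocyte list stood at 56.4 and 82.3 CPM in the libraries of replicate 1 and at 200 and 223 CPM in those of replicate 2, and within each replicate number it was higher in CD8. Its member Cd68, a lysosomal protein, had 8.70 and 13.7 CPM in STAT3KO CD4 and 44.0 and 39.9 CPM in STAT3KO CD8 libraries. Within each replicate number, the excess of Cd68 in CD8 was larger than that of the whole list. Cd68 was the only member called (1.91 on the log2 scale, adjusted p 0.00329 by edgeR). Hmox1 had 23.8 and 50.7 CPM in STAT3KO CD4 and 18.1 and 42.3 CPM in STAT3KO CD8 libraries. Of the 14 members, 8 had a positive and 6 a negative log2 fold change. The part of such cells in the lineage differences was not tested.

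Of 12428 genes tested, 1555 were called (edgeR quasi-likelihood test, Benjamini-Hochberg adjusted p under 0.05, two-sided), which is 12.5% of all tested. In CD8 T cells 726 genes were higher (5.84% of those tested) and 829 lower (6.67%). All 1555 called genes had STAT3KO CD8 libraries that did not overlap the STAT3KO CD4 libraries. Lack of overlap alone is common with 2 libraries a group, and it held for 7247 of the 12428 genes tested. Large differences were more often on the CD4 side: 106 genes were at least 4-fold higher and 151 at least 4-fold lower in CD8 T cells, and 17 and 32 genes passed 16-fold. The median log2 fold change was 0.85 among the genes called higher and -0.95 among those called lower, against 0.002 over all genes tested. The count rests on each of the 4 libraries. It was 457 without STAT3KO CD4 replicate 1, 547 without STAT3KO CD4 replicate 2, 540 without STAT3KO CD8 replicate 1 and 645 without STAT3KO CD8 replicate 2, and the remaining sample of such a group was assumed to vary like the other groups. None of the 1555 genes changed direction in these 4 fits. With no overlap between the groups, leaving out 1 library could hardly turn a sign, so this is no test of the calls. With the replicate number as a block, 3689 genes were called, among them all 1555. By chromosome, the share called ran from 9.86% of the tested genes on chromosome 18 to 15.4% on chromosome 1, apart from chromosome Y with 0 of 4.

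The genes that define the sort came first. Cd4 had 1576 and 1602 CPM in STAT3KO CD4 and 1.64 and 8.16 CPM in STAT3KO CD8 libraries. Cd8a had 1.70 and 15.99 CPM in STAT3KO CD4 and 819 and 941 CPM in STAT3KO CD8 libraries. The lineages were thus separated in all 4 libraries, and the coreceptor of the other lineage was higher in replicate 2 of each. Stat3 itself did not separate them. It had 138 and 141 CPM in STAT3KO CD4 and 120 and 143 CPM in STAT3KO CD8 libraries (-0.09 on the log2 scale, SE 0.11, adjusted p 0.678 by edgeR), so the remaining Stat3 RNA overlapped between the lineages. In WT libraries Stat3 had 436 and 428 CPM in CD4 and 431 and 436 CPM in CD8, all above the STAT3KO libraries. The T cell receptor subunit Cd3e stood between 590 and 735 CPM by column total in the 4 libraries.

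Beyond the coreceptors, the largest excess in CD8 T cells, taking genes whose average log2 CPM reached 3, was in Smyd1, Adgrg1, Crtam, Adgrg5, Wdr95, Itgax, Bend4, Rcn3, Xcl1, Epha3, Gzma and Klrc1, in this order. Smyd1, which encodes a histone methyltransferase known from heart and skeletal muscle, had 0.050 and 0.55 CPM in STAT3KO CD4 and 30.9 and 26.8 CPM in STAT3KO CD8 libraries (6.52 on the log2 scale, SE 0.56, adjusted p 0.000824 by edgeR). Crtam, an adhesion receptor of activated cytotoxic cells, had 2.50 and 5.12 CPM in STAT3KO CD4 and 98.0 and 106 CPM in STAT3KO CD8 libraries, a 26.5-fold difference (edgeR adjusted p 0.000496). Itgax, the integrin subunit CD11c, went from 13.3 and 14.9 to 211 and 162 CPM (3.72 on the log2 scale, SE 0.17, adjusted p 0.000165 by edgeR). In each of these genes, which were chosen for a large difference without overlap, the lower CD8 library was several times above the higher CD4 library.

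Some of these genes are neighbours. On chromosome 6 (mm10), Smyd1 (71213940 to 71262281, minus strand) lies beside Cd8b1 (71322788 to 71337492, plus strand) and Cd8a (71373427 to 71379171, plus strand), whose log2 fold changes were 5.26 and 6.63. Krcc1, which lies between Smyd1 and Cd8b1, had a log2 fold change of 0.05 (edgeR adjusted p 0.83), and Rmnd5a on the far side of Cd8a had 0.04 (edgeR adjusted p 0.821). On chromosome 8, the adhesion receptor genes Adgrg5 (94923694 to 94943290) and Adgrg1 (94977109 to 95014208), both on the plus strand, had log2 fold changes of 4.38 and 4.97. Ccdc102a, beside Adgrg5, had 3.06 (edgeR adjusted p 0.00132), whereas Adgrg3, which follows Adgrg1, had -1.16 and was not called (edgeR adjusted p 0.343). Krcc1, Rmnd5a, Ccdc102a and Adgrg3 were looked up for their position, after the values were seen.

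At the other end stood Cd40lg, Coro2b, Ifi204, Sostdc1, Matn2, Tnfsf11, Ica1l, Il21, Nav2, Ttn, Izumo1r and Gpm6b. Cd40lg, the ligand through which helper cells license B cells and dendritic cells, had 121 and 104 CPM in STAT3KO CD4 and 2.07 and 2.75 CPM in STAT3KO CD8 libraries, a 46.6-fold difference (-5.54 on the log2 scale, SE 0.18, adjusted p 2.67e-05 by edgeR). Coro2b, a coronin that binds actin, had 25.8 and 32.4 against 0.68 and 1.26 CPM (-4.89 on the log2 scale, SE 0.31, adjusted p 0.000337 by edgeR). Ifi204, a DNA sensor of the interferon-inducible p200 family, had 88.0 and 145 against 2.41 and 5.77 CPM (-4.82 on the log2 scale, SE 0.50, adjusted p 0.00155 by edgeR), and reads of this family of close copies may be split between members. Izumo1r, the folate receptor 4 found on regulatory and anergic CD4 T cells, had 46.3 and 66.3 against 4.39 and 5.37 CPM (-3.53 on the log2 scale, SE 0.22, adjusted p 0.000301 by edgeR). Of these 24 genes, 23 kept their call when any 1 STAT3KO library was left out. The exception was Xcl1, which lost it in each of the 4 fits (edgeR adjusted p 0.0681 to 0.139).

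**Figure D1:**
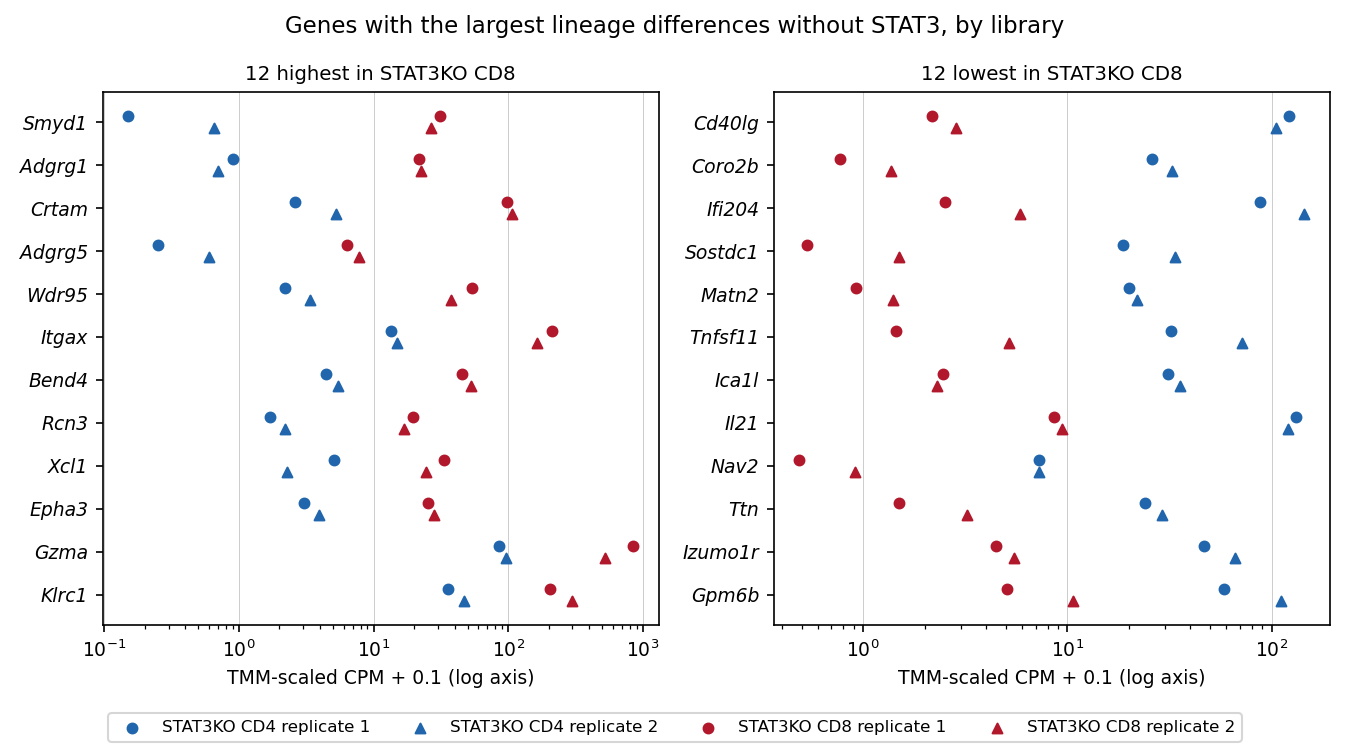
Level of the 24 genes furthest apart between STAT3KO CD8 and CD4 T cells, 12 in each direction, as TMM-scaled CPM plus 0.1 on a log axis. Each point is 1 library (circle replicate 1, triangle replicate 2, blue CD4, red CD8). The 24 genes were chosen among those whose 2 colours do not overlap.

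The sequence just before the transcription start is shown for the 3 genes at each end that have an entry in the RefSeq promoter table, because these promoters belong to the genes that separate the lineages most. Each is 150 bases, 5′ to 3′ on the strand of the gene, with coordinates on GRCm38.p6 (mm10). Capitals mark 4 short motifs searched on both strands: TGTGGT, the core bound by Runx proteins, GTGTGA, the core of sites of T-box factors, AGATAA of GATA factors and CTTTGA of TCF and LEF factors.
Smyd1, chr6:71262282-71262431, minus strand: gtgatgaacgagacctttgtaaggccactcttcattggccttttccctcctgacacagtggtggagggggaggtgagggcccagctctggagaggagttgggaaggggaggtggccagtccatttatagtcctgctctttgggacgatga
Adgrg1, chr8:94976959-94977108, plus strand: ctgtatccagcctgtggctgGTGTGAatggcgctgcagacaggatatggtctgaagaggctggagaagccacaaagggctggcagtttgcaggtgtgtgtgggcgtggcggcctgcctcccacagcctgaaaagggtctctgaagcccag
Adgrg5, chr8:94923544-94923693, plus strand: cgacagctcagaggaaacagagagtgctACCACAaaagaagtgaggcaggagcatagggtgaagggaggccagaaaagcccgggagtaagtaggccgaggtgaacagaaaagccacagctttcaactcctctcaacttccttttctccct
Coro2b, chr9:62537045-62537194, minus strand: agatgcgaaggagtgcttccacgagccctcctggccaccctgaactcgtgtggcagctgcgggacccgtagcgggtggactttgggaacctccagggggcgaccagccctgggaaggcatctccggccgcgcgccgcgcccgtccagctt
Tnfsf11, chr14:78308044-78308193, minus strand: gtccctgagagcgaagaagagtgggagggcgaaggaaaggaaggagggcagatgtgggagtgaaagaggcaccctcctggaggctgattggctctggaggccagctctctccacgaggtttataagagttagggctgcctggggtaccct
Ica1l, chr1:60043123-60043272, minus strand: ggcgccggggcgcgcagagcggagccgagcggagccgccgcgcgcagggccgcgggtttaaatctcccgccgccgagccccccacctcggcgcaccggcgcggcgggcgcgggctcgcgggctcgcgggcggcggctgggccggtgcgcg
Adgrg1 holds 1 T-box motif and Adgrg5 holds 1 Runx motif in this window, and no motif was found in the other 4.

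Over the 250 bases before the start, the motifs were about as common in the promoters of genes called in either direction as in those not called. The Runx core was in 13.04% of the 575 promoters of genes called higher in CD8 T cells, in 11.5% of the 654 promoters of genes called lower and in 11.2% of the 8607 promoters of genes not called. The T-box core was in 9.91%, 9.63% and 8.90% of these promoters, and the TCF and LEF motif in 10.4%, 11.3% and 10.8%. The GATA motif was in 4.52% of promoters of genes higher in CD8, in 7.03% of those lower and in 5.88% of those not called. Over all 32851 promoters of the table, which include alternative starts and genes not tested here, the shares were 14.05% for the Runx core, 12.3% for the T-box core, 9.99% for the GATA motif and 13.8% for the TCF and LEF motif. These are descriptions of letters and not of binding.

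Lineage transcription factors were examined next. For this and all later lists, the shares over all genes tested were 5.84% called higher and 6.67% called lower in CD8 T cells. Of 20 lineage factors tested, 2 were higher and 6 lower in STAT3KO CD8 T cells, with a median log2 fold change of -0.19 against 0.002 over all genes. Zbtb7b, the helper lineage factor ThPOK, had 212 and 161 CPM in STAT3KO CD4 and 75.1 and 52.9 CPM in STAT3KO CD8 libraries (-1.54 on the log2 scale, SE 0.28, adjusted p 0.0121 by edgeR). Its call was lost without STAT3KO CD4 replicate 1 and without STAT3KO CD8 replicate 2 (edgeR adjusted p 0.0798 and 0.0804). Runx3, its counterpart in CD8 T cells, had 215 and 174 CPM in STAT3KO CD4 and 259 and 194 CPM in STAT3KO CD8 libraries and was not called (0.22 on the log2 scale, SE 0.23, adjusted p 0.597 by edgeR), so its libraries overlapped while those of Zbtb7b did not. The T-box factors went apart. Eomes had 13.5 and 11.01 CPM in STAT3KO CD4 and 70.2 and 47.6 CPM in STAT3KO CD8 libraries (2.27 on the log2 scale, SE 0.25, adjusted p 0.00223 by edgeR), whereas Tbx21 had 183 and 132 against 198 and 125 CPM (0.04 on the log2 scale, SE 0.47, adjusted p 0.974 by edgeR). Gata3 had 226 and 162 against 98.2 and 87.5 CPM, without overlap, and missed the threshold (log2 fold change -1.06, edgeR adjusted p 0.0705). It passed under DESeq2, without a filter on low counts, with the replicate block and in the 4 STAT3KO libraries alone (adjusted p 0.00042 to 0.0174). Foxp3, the regulatory T cell factor, had 12.8 and 15.9 against 11.4 and 20.8 CPM and was not called (edgeR adjusted p 0.753). The count of called factors was 4 without STAT3KO CD4 replicate 1, 6 without STAT3KO CD4 replicate 2, 6 without STAT3KO CD8 replicate 1 and 4 without STAT3KO CD8 replicate 2.

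Maf, Bcl6 and Tcf7 were lower in CD8 T cells. Maf, which drives interleukin-21 in helper cells, had 345 and 291 CPM in STAT3KO CD4 and 31.2 and 42.8 CPM in STAT3KO CD8 libraries (-3.10 on the log2 scale, SE 0.27, adjusted p 0.000824 by edgeR). Bcl6, the repressor that defines follicular helper cells, had 21.1 and 22.99 against 2.31 and 4.15 CPM (-2.76 on the log2 scale, SE 0.28, adjusted p 0.00144 by edgeR). Tcf7, which maintains stem-like and memory T cells, had 420 and 389 against 141 and 168 CPM (-1.39 on the log2 scale, SE 0.16, adjusted p 0.00248 by edgeR). Of 24 effector and memory factors tested, 2 were higher, 3 lower and 19 not called (median log2 fold change -0.16). Those higher were Zeb2 (log2 fold change 1.41), a partner of T-bet in terminal effectors, and Zbtb32 (1.10). Those lower were Tcf7, Tox2 (-0.69) and Bach2 (-0.69). Tcf7 kept its call without any 1 library. Zeb2 lost it without STAT3KO CD4 replicate 1 and STAT3KO CD8 replicate 2 (edgeR adjusted p 0.0669 and 0.0832), and Zbtb32 and Bach2 lost it in all 4 such fits (edgeR adjusted p 0.0516 to 0.0923 and 0.119 to 0.202).

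The killing machinery was higher in CD8 T cells, although not in all its parts. Of 20 tested genes of cytotoxic granules, 8 were higher and 2 lower, with a median log2 fold change of 0.40. Gzma, a granzyme with trypsin-like activity, had 84.9 and 96.1 CPM in STAT3KO CD4 and 851 and 519 CPM in STAT3KO CD8 libraries, a 7.57-fold difference (edgeR adjusted p 0.000819). Gzmb, the granzyme that activates caspases, had 331 and 308 against 1557 and 1355 CPM (2.19 on the log2 scale, SE 0.12, adjusted p 0.000257 by edgeR). Prf1, which encodes perforin, had 48.8 and 52.7 against 242 and 246 CPM (2.27 on the log2 scale, SE 0.16, adjusted p 0.00051 by edgeR). Gzmk followed with 67.5 and 72.7 against 296 and 206 CPM (log2 fold change 1.84, edgeR adjusted p 0.00123). None of these 4 genes overlapped between the lineages, and all kept their call without any 1 library. The CD4 libraries were thus not free of these transcripts, and Gzmb stood above 300 CPM in both.

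The remaining granule genes differed less. Ctsw, Ctsc and Nkg7 were higher with log2 fold changes of 0.87, 0.69 and 0.49, and Nkg7 lost its call without any 1 library (edgeR adjusted p 0.0786 to 0.227). Gzmm (0.47), Gzmc (0.39) and the granzyme inhibitor Serpinb9 (0.36) were not called, nor were the genes of granule release Rab27a (0.04), Unc13d (-0.15) and Stxbp2 (-0.13). Srgn, the proteoglycan serglycin on which granzymes are packed, was lower in CD8 T cells, with 1239 and 1375 CPM in STAT3KO CD4 and 616 and 717 CPM in STAT3KO CD8 libraries (-0.97 on the log2 scale, SE 0.14, adjusted p 0.00579 by edgeR), and so was the protease Ctsl (-0.96). Gzmf had no count in the STAT3KO CD4 libraries and 6 and 14 counts in the STAT3KO CD8 libraries, at least 3.24-fold higher against a floor of 3 counts per library, and kept its call only without STAT3KO CD8 replicate 1. With Gzmf at this bound, the median of the list stayed at 0.40. Granzymes lie in clusters of close copies, so reads may be split between them. The count of called granule genes was 7, 6, 8 and 7 when STAT3KO CD4 replicate 1, STAT3KO CD4 replicate 2, STAT3KO CD8 replicate 1 and STAT3KO CD8 replicate 2 were left out, an order used for such counts from here on.

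Receptors shared with natural killer (NK) cells showed the same side. Of 22 tested, 6 were higher and 1 lower in CD8 T cells (median log2 fold change 0.75). Klrk1, the activating receptor NKG2D, had 78.3 and 79.2 CPM in STAT3KO CD4 and 432 and 335 CPM in STAT3KO CD8 libraries (2.28 on the log2 scale, SE 0.16, adjusted p 0.000496 by edgeR). Klrc1, the inhibitory receptor NKG2A, had 35.6 and 47.1 against 204 and 296 CPM (2.60 on the log2 scale, SE 0.21, adjusted p 0.000824 by edgeR), and Cd160 had 23.8 and 24.1 against 143 and 121 CPM (2.46 on the log2 scale, SE 0.14, adjusted p 0.000236 by edgeR). Both lineages therefore carried these RNAs at different levels. Klrd1, the partner of NKG2A (log2 fold change 1.05), and Cd226 (0.77) were also called higher, and Klrb1f was lower (-1.38). Klrg1 (0.87), Klra7 (1.44) and the adaptors Fcer1g (0.54), Tyrobp (0.18) and Hcst (-0.34) were not called. The count was 6, 6, 6 and 7 without each library in turn. A 13-gene NK cell list, which holds several genes described here, summed to 1526 and 1621 CPM by column total in STAT3KO CD4 and to 2366 and 2205 CPM in STAT3KO CD8 libraries. Il2rb alone gave 1408.5 and 1479.4 CPM and 1430.9 and 1611.6 CPM of this. Ncr1, a defining receptor of NK cells, was at or below 0.25 CPM in all 4 libraries. Klrb1c had 14.9 and 18.6 CPM in STAT3KO CD4 and 19.5 and 13.9 CPM in STAT3KO CD8 libraries, and Klre1 had 0.79 and 1.23 against 3.55 and 2.98 CPM. Of the 9 members tested, 8 had a positive and 1 a negative log2 fold change. The part of such cells in these differences was not tested.

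**Figure D2:**
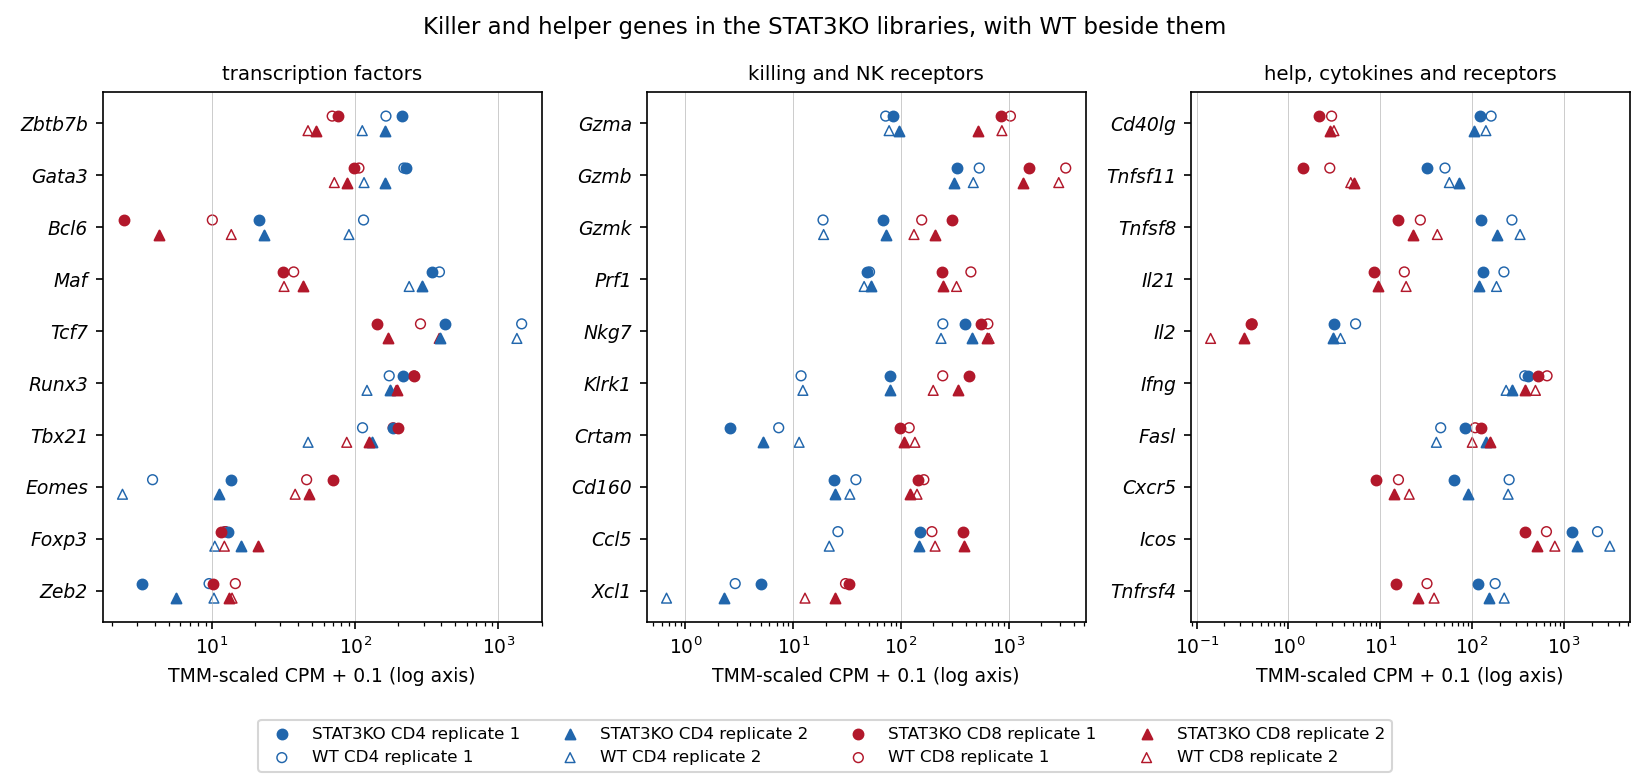
Level of 30 genes of lineage choice, killing and help, as TMM-scaled CPM plus 0.1 on a log axis, in STAT3KO (filled) and WT (open) libraries, with CD4 in blue, CD8 in red, replicate 1 as circle and replicate 2 as triangle. Granzymes and perforin were higher and CD40 ligand and Il21 lower in CD8 T cells, whereas the STAT3KO libraries of Runx3, Tbx21, Ifng and Foxp3 overlapped between the lineages.

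The ligands and cytokines of T cell help were lower in CD8 T cells. Of 13 ligands of the tumour necrosis factor superfamily, 6 were lower and 0 higher, with a median log2 fold change of -1.01. Beside Cd40lg, Tnfsf11, the osteoclast factor RANKL, had 32.0 and 71.8 CPM in STAT3KO CD4 and 1.35 and 5.05 CPM in STAT3KO CD8 libraries (-4.01 on the log2 scale, SE 0.59, adjusted p 0.00551 by edgeR). Tnfsf8, the CD30 ligand, had 125 and 185 against 15.5 and 22.9 CPM (-3.02 on the log2 scale, SE 0.30, adjusted p 0.00143 by edgeR). Cd70 had 3.50 and 2.38 against 0.19 and 0.41 CPM (log2 fold change -3.26, edgeR adjusted p 0.0298) and lost its call without any 1 library (edgeR adjusted p 0.0804 to 0.166). Tnf (log2 fold change -1.45) and Lta (-1.31) were lower as well. The count of called ligands was 4, 4, 5 and 5 without each library. Fasl, the death ligand, had 83.4 and 142 against 124 and 156 CPM and was not called (0.31 on the log2 scale, SE 0.23, adjusted p 0.451 by edgeR), so it overlapped between the lineages.

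Among secreted cytokines, 7 of 18 tested were lower and 1 higher in CD8 T cells (median log2 fold change -1.01). Il21, the main cytokine of follicular helper cells and itself a signal through STAT3, had 131 and 120 CPM in STAT3KO CD4 and 8.54 and 9.34 CPM in STAT3KO CD8 libraries, a 14.03-fold difference (-3.81 on the log2 scale, SE 0.14, adjusted p 3.39e-05 by edgeR). Il2, the growth factor of T cells, had 3.05 and 2.92 against 0.29 and 0.23 CPM (-3.51 on the log2 scale, SE 0.59, adjusted p 0.00971 by edgeR). Ebi3, a subunit of interleukins 27 and 35, had 7.65 and 9.78 against 0.19 and 0.72 CPM (-4.22 on the log2 scale, SE 0.58, adjusted p 0.00416 by edgeR). Lif (log2 fold change -3.02) and Il16 (-0.56) were lower too. Il4 and Il3 passed with few reads, 28 and 17 counts of Il4 and 10 and 9 counts of Il3 in the STAT3KO CD4 libraries against 0 and 3 and against 1 and 1 in the STAT3KO CD8 libraries. The gene called higher was Il17a, on 0 and 1 counts in STAT3KO CD4 and 21 and 6 counts in STAT3KO CD8 libraries. Il4 lost its call without any 1 library (edgeR adjusted p 0.0677 to 0.169) and Il17a kept it only without STAT3KO CD8 replicate 2 (edgeR adjusted p 0.0376). Ifng, the cytokine of both type 1 helper and cytotoxic cells, had 411 and 270 against 520 and 381 CPM and was not called (0.40 on the log2 scale, SE 0.29, adjusted p 0.434 by edgeR). Among the alternatives it was called only with the replicate block (edgeR adjusted p 0.00498). The count of called cytokines was 3, 4, 4 and 4 without each library, and Il2 lost its call without STAT3KO CD4 replicate 1, STAT3KO CD8 replicate 1 and STAT3KO CD8 replicate 2 (edgeR adjusted p 0.0525 to 0.0668).

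Follicular helper genes were the list with the lowest median of the 28 lists examined. Of 18 tested, 14 were lower in CD8 T cells, 0 were higher and the median log2 fold change was -1.60. Sostdc1, a secreted antagonist of bone morphogenetic proteins known from follicular helper cells, had 18.6 and 33.5 CPM in STAT3KO CD4 and 0.43 and 1.40 CPM in STAT3KO CD8 libraries (-4.80 on the log2 scale, SE 0.47, adjusted p 0.00132 by edgeR). Cxcr5, the receptor that leads T cells to B cell follicles, had 64.0 and 89.5 against 8.83 and 14.03 CPM (-2.74 on the log2 scale, SE 0.26, adjusted p 0.00114 by edgeR). Icos, the costimulator of these cells, had 1235 and 1399 against 373 and 507 CPM (-1.58 on the log2 scale, SE 0.20, adjusted p 0.00339 by edgeR). In each of these genes the lineages did not overlap. Il6ra (log2 fold change -2.63), Btla (-1.61), Cd200 (-1.59), Angptl2 (-1.44), Slamf6 (-1.18) and the signalling chain Il6st (-0.72) were called on the same side. Pdcd1, which encodes PD-1, stood on the other side with 314 and 254 against 494 and 441 CPM and missed the threshold (0.72 on the log2 scale, SE 0.23, adjusted p 0.0837 by edgeR), which it passed under DESeq2, without a filter on low counts, with the replicate block and in the 4 STAT3KO libraries alone. The count was 13, 10, 10 and 13 without each library. Several of these genes are also in other lists used here. Of the B cell markers, Cd79a and Ms4a1 were at or below 0.27 CPM by column total in all 4 libraries, although the 12 B cell genes found in the table summed to 149 and 171 CPM in STAT3KO CD4 and 37.7 and 55.2 CPM in STAT3KO CD8 libraries. Cd22 gave 146 and 167 CPM of this in STAT3KO CD4 and 24.8 and 41.5 CPM in STAT3KO CD8 libraries. Cd79b was called in the opposite direction to Cd22, with 2.06 and 2.46 CPM in STAT3KO CD4 and 12.1 and 12.8 CPM in STAT3KO CD8 libraries by column total, and the part of B cells in these differences was not tested.

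Genes linked to regulatory T cells were lower in part. Of 18 tested, 1 was higher and 7 lower in CD8 T cells (median log2 fold change -0.62). Tnfrsf4, the costimulator OX40, had 116 and 153 CPM in STAT3KO CD4 and 14.9 and 25.9 CPM in STAT3KO CD8 libraries (-2.73 on the log2 scale, SE 0.28, adjusted p 0.00146 by edgeR). Ikzf2, the factor Helios (log2 fold change -1.83), and Tnfrsf18, the receptor GITR (-0.96), were also lower. Penk (-2.41) and Lrrc32 (-2.03) were called at a few CPM and lost their call without any 1 library (edgeR adjusted p 0.0616 to 0.149 and 0.0886 to 0.214). Il2ra (0.40) and Ctla4 (-0.43) were not called. The gene higher in CD8 T cells was Tnfrsf9, the costimulator 4-1BB (log2 fold change 1.01, edgeR adjusted p 0.00654). The count was 4, 5, 5 and 5 without each library.

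Costimulatory and inhibitory receptors were found on both sides. Of 18 costimulatory receptors, 4 were higher and 8 lower in CD8 T cells, and of 15 inhibitory receptors 3 were higher and 4 lower. Tnfrsf25, the death receptor 3 that responds to TL1A, had 38.7 and 34.5 CPM in STAT3KO CD4 and 4.39 and 5.59 CPM in STAT3KO CD8 libraries (-2.87 on the log2 scale, SE 0.17, adjusted p 0.0003 by edgeR). Btla, an inhibitory receptor that binds HVEM, had 567 and 569 against 182 and 192 CPM (-1.61 on the log2 scale, SE 0.18, adjusted p 0.0023 by edgeR). On the CD8 side, Havcr2, which encodes TIM-3 (log2 fold change 1.11, edgeR adjusted p 0.00993), and Lag3 (0.60, adjusted p 0.0198) accompanied Cd160. Tigit was lower (-0.43), and Ctla4, Cd28 (-0.30) and Cd27 (0.28) were not called. The counts without each library were 7, 8, 8 and 9 for costimulatory and 4, 4, 3 and 5 for inhibitory receptors.

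Chemokines and the receptors of migration also split between the lineages. Of 10 chemokines, Xcl1 and Ccl5 were higher and Cxcl10 and Ccl1 lower in CD8 T cells. Xcl1, the attractant of cross-presenting dendritic cells, had 4.95 and 2.19 CPM in STAT3KO CD4 and 33.2 and 24.4 CPM in STAT3KO CD8 libraries (3.02 on the log2 scale, SE 0.65, adjusted p 0.0237 by edgeR). Ccl5, also called RANTES, had 151 and 147 against 376 and 385 CPM (1.35 on the log2 scale, SE 0.12, adjusted p 0.000824 by edgeR). Ccl3 (0.62) and Ccl4 (0.95) were not called. Cxcl10 kept its call only without STAT3KO CD8 replicate 2 (edgeR adjusted p 0.0215) and Ccl1 only without STAT3KO CD4 replicate 2 (edgeR adjusted p 0.0105). The list had a median of 0.22, which became -0.53 without STAT3KO CD4 replicate 1 and -1.66 without STAT3KO CD8 replicate 2, and 1, 2, 1 and 2 of its genes were called without each library. Of 22 receptors of chemokines and tissue egress, 3 were higher and 4 lower. Ccr4, a receptor of type 2 helper and regulatory cells, had 10.5 and 13.8 against 0.63 and 0.41 CPM (-4.54 on the log2 scale, SE 0.40, adjusted p 0.000948 by edgeR). Ccr8 (-2.25) and the gut homing receptor Ccr9 (-1.86) were lower, and Cx3cr1 (1.71) and Selplg (0.44) higher. Ccr8 kept its call only without STAT3KO CD4 replicate 2 (edgeR adjusted p 0.0384). Cxcr3 (-0.19), Ccr7 (-1.06) and S1pr1 (-0.22) were not called. The counts without each library were 3, 4, 3 and 5.

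Of 18 integrin genes, 4 were higher and 2 lower in CD8 T cells. Itga3 had 3.85 and 4.48 CPM in STAT3KO CD4 and 14.3 and 15.2 CPM in STAT3KO CD8 libraries (1.82 on the log2 scale, SE 0.18, adjusted p 0.00146 by edgeR). Itga4, a chain of gut homing integrins, was higher (0.51), and Itga1, a collagen receptor chain, was higher (1.05) but lost its call without any 1 library (edgeR adjusted p 0.0756 to 0.221). Itgb1, the shared chain of many of these receptors, was lower, with 3604 and 3564 against 2411 and 2010 CPM (-0.70 on the log2 scale, SE 0.12, adjusted p 0.0111 by edgeR). Itgb8 was called on 23 and 22 counts in STAT3KO CD4 against 0 and 3 counts in STAT3KO CD8 libraries. Itgb1 kept its call only without STAT3KO CD8 replicate 1 (edgeR adjusted p 0.0294) and Itgb8 only without STAT3KO CD8 replicate 2 (edgeR adjusted p 0.0451). The count was 2, 2, 4 and 3 without each library. A list of 14 dendritic cell genes, which holds Itgax, summed to 109 and 149 CPM by column total in STAT3KO CD4 and to 253 and 240 CPM in STAT3KO CD8 libraries. Of its members, Flt3 and Xcr1 were at or below 0.049 CPM in the 4 libraries, Bst2 stood between 30.4 and 43.0 CPM, and Cd74 had 25.1 and 37.0 CPM in STAT3KO CD4 and 3.69 and 19.5 CPM in STAT3KO CD8 libraries. The part of dendritic cells in the Itgax difference was not tested.

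Of 32 cytokine receptors tested, 2 were higher and 8 lower in CD8 T cells, and 22 were not called. The share higher was close to the 5.84% over all genes, and the share lower was above the 6.67% over all genes. Il6ra, the receptor chain for interleukin-6, had 62.3 and 63.0 CPM in STAT3KO CD4 and 10.0 and 10.2 CPM in STAT3KO CD8 libraries (-2.63 on the log2 scale, SE 0.32, adjusted p 0.0027 by edgeR). Il7r (-0.98), Il27ra (-0.99) and the common gamma chain Il2rg (-0.50) were called lower, whereas Il2rb (0.08), Il21r (0.14) and Il12rb1 (-0.21) were not called. Among 23 genes of STAT proteins, Janus kinases and their feedback, 1 was higher and 6 lower (median log2 fold change -0.37). Cish, a feedback inhibitor induced by STAT5, had 29.9 and 29.2 against 7.14 and 9.11 CPM (-1.86 on the log2 scale, SE 0.20, adjusted p 0.00197 by edgeR), and Socs2, Socs5 and Socs1 had -1.12, -1.07 and -0.99. Socs2 lost its call without any 1 library (edgeR adjusted p 0.0559 to 0.104), Socs1 kept it only without STAT3KO CD8 replicate 2 and Socs5 only without replicate 2 of either lineage. Stat4 (-0.14) and Stat5a (-0.05) were not called. Jak2 was lower (-0.57) and Jak1 higher (0.33). The counts without each library were 3, 5, 5 and 4 for cytokine receptors and 2, 3, 2 and 4 for the STAT list.

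In T cell receptor signalling, 3 of 33 genes were higher and 9 lower. Trat1, an adaptor of the receptor complex, had 12.8 and 11.97 CPM in STAT3KO CD4 and 0.68 and 1.17 CPM in STAT3KO CD8 libraries (-3.73 on the log2 scale, SE 0.44, adjusted p 0.00249 by edgeR). Cd6, a scavenger receptor that dampens signalling, had 362 and 379 against 149 and 125 CPM (-1.44 on the log2 scale, SE 0.12, adjusted p 0.000824 by edgeR), and its relative Cd5 was lower as well (-0.98). Tec, a kinase, was higher with 11.7 and 11.2 against 28.6 and 26.7 CPM (log2 fold change 1.27, edgeR adjusted p 0.00225). Matk was lower (-1.59) and lost its call without STAT3KO CD8 replicate 1 (edgeR adjusted p 0.0603). The core components Cd3d (-0.22), Cd3e (0.20), Lck (-0.14) and Zap70 (-0.45) were not called. Immediate early genes, which follow receptor signals and also cell handling, had 6 of 27 lower and 0 higher (median -0.735). Egr3 and Egr2 had log2 fold changes of -2.49 and -1.87, and both lost their call without STAT3KO CD8 replicate 1 (edgeR adjusted p 0.06 and 0.0526). Fos (-0.95) and Jun (-0.92) were not called. The counts were 7, 7, 7 and 7 for the signalling list and 3, 2, 0 and 6 for the immediate early list.

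Interferon-stimulated genes were lower in CD8 T cells. Of 36 tested, 23 were called lower and 0 higher, 35 had a negative value and the median log2 fold change was -0.89. Oasl2, an antiviral gene of the oligoadenylate synthetase family, had 22.1 and 27.4 CPM in STAT3KO CD4 and 3.95 and 5.32 CPM in STAT3KO CD8 libraries (-2.41 on the log2 scale, SE 0.28, adjusted p 0.00241 by edgeR). Ifi27l2a, a mitochondrial protein induced by type I interferon, had 473 and 564 against 210.2 and 174 CPM (-1.43 on the log2 scale, SE 0.14, adjusted p 0.00146 by edgeR), and Isg20, an exonuclease, had 26.3 and 35.0 against 11.04 and 11.2 CPM (log2 fold change -1.46, edgeR adjusted p 0.00233). Isg15 (-1.31), Usp18 (-1.14) and the guanylate binding proteins Gbp6 (-1.37), Gbp2 (-1.07) and Gbp5 (-0.95) were also called. Mx1 (-0.15), Irf7 (-0.35) and Bst2 (-0.31) were not. Receptors of interferon did not pass, with Ifnar1 at -0.03 and Ifngr1 at 0.43. The count was 17, 8, 8 and 11 without each library, and Oas2 (-2.23) lost its call without STAT3KO CD4 replicate 2, STAT3KO CD8 replicate 1 and STAT3KO CD8 replicate 2 (edgeR adjusted p 0.0676 to 0.104). These families hold close copies, so their reads may be split between members.

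Class I antigen presentation, which interferon also induces, had 6 of 23 genes lower and 0 higher with small differences (median -0.25). H2-K1, the class I heavy chain, had 2486 and 2600 CPM in STAT3KO CD4 and 1823 and 1695 CPM in STAT3KO CD8 libraries (-0.53 on the log2 scale, SE 0.08, adjusted p 0.00613 by edgeR). H2-Q4 had 388 and 351 against 203 and 168 CPM (log2 fold change -0.99, edgeR adjusted p 0.00345). H2-D1 (-0.10), B2m (-0.15) and Tap1 (-0.25) were not called. H2-K1 narrowly lost its call without STAT3KO CD4 replicate 2 (edgeR adjusted p 0.0515) and was not called on log2(RPKM + 1) (limma adjusted p 0.0712), and H2-T23 (-0.55) and Psme2 (-0.65) lost theirs in 3 and 4 of the 4 fits without 1 library. The count was 2, 1, 3 and 2 without each library. The class I genes are close copies of each other.

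Proliferation genes pointed the other way. All 32 tested had a positive log2 fold change, 20 were called higher in CD8 T cells and 0 lower, and the median was 0.75. Ccnb2, a cyclin of mitosis, had 112 and 112 CPM in STAT3KO CD4 and 226 and 220 CPM in STAT3KO CD8 libraries (0.99 on the log2 scale, SE 0.09, adjusted p 0.00114 by edgeR). Bub1, a kinase of the spindle checkpoint, had 75.9 and 71.2 against 141 and 153 CPM (1.00 on the log2 scale, SE 0.17, adjusted p 0.00971 by edgeR), and Ccna2 had 237 and 228 against 428 and 460 CPM (log2 fold change 0.94, edgeR adjusted p 0.0118). Mki67, the usual marker of cycling cells, had 1454 and 1223 against 2416 and 2033 CPM without overlap and missed the threshold (0.73 on the log2 scale, SE 0.21, adjusted p 0.0633 by edgeR). It passed under DESeq2, column totals, no filter on low counts, the replicate block and the 4 STAT3KO libraries alone (adjusted p 0.000312 to 0.0476). The count of 20 fell to 4, 4, 8 and 5 without each library, and Bub1 and Ccna2 lost their call in each of these fits (edgeR adjusted p 0.0503 to 0.0789 and 0.0573 to 0.0875). With the replicate block all 32 genes were called. Of 15 genes that control entry into the cycle, Rbl1 was higher (0.45) and Ccnd2 (-0.87) and Cdkn1a (-1.16) lower, while Cdk4 (0.29), Cdk6 (-0.34) and Ccnd3 (-0.08) were not called. Rbl1 and Ccnd2 lost their call without any 1 library (edgeR adjusted p 0.0503 to 0.163), and Cdkn1a kept it only without STAT3KO CD8 replicate 2 (edgeR adjusted p 0.0404).

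**Figure D3:**
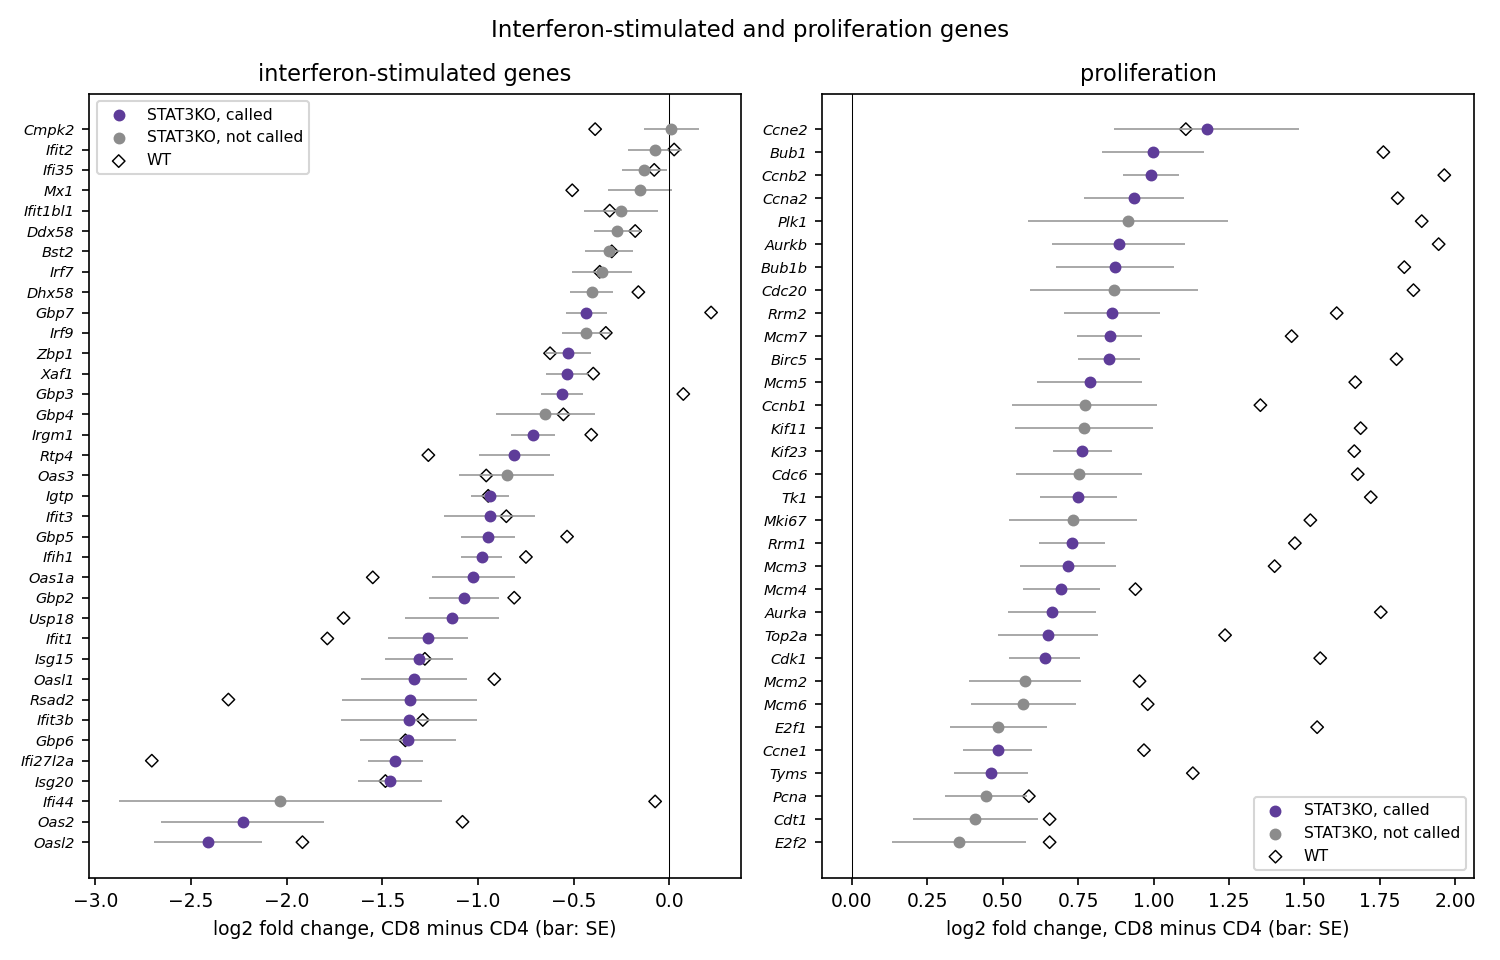
Log2 fold change of CD8 against CD4 T cells for 36 interferon-stimulated and 32 proliferation genes. Filled points are STAT3KO with the standard error as a bar (purple called, grey not called) and open diamonds are WT, and the interferon-stimulated genes lie at or below 0 except Cmpk2 (0.01) while all proliferation genes lie above 0 in STAT3KO.

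Lists of metabolism and protein synthesis genes had small median differences between the lineages. Glycolysis had 1 of 24 genes higher, Eno3 (log2 fold change 1.57), and 2 lower, Ldhb (-2.44) and Pfkm (-0.71), with a median of 0.18. The glucose transporter Slc2a1 had 64.8 and 62.7 CPM in STAT3KO CD4 and 69.5 and 76.0 CPM in STAT3KO CD8 libraries (0.19 on the log2 scale, SE 0.10, adjusted p 0.266 by edgeR). Glutathione metabolism had 2 of 32 higher, Gsto1 (1.69) and Gstm1 (1.07), and 1 lower, Idh2 (-0.75), and fatty acid uptake and oxidation had 2 of 26 higher, Fabp5 (1.02) and Acadl (0.49). None of these metabolic lists had a larger share called than the 12.5% over all genes. Of these genes, Pfkm, Gstm1, Idh2, Fabp5 and Acadl lost their call without any 1 library (edgeR adjusted p 0.0525 to 0.203). Of 36 genes of Myc and ribosome biogenesis, 4 were higher and 2 lower with a median of 0.025, and 2, 1, 1 and 2 were called without each library. The 6 genes called in this list in the main fit were a larger share than the 12.5% over all genes. Mycn was among those higher and Wdr12 among those lower. Myc itself had 96.0 and 42.4 against 76.7 and 48.7 CPM (-0.14 on the log2 scale, SE 0.54, adjusted p 0.906 by edgeR). Of 92 genes of the respiratory chain 2 were higher and 1 lower, and of 95 genes of ribosomal proteins 1 was higher and 1 lower, a smaller share than over all genes.

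Other families were described by the start of their symbol. Of 14 tested genes of the Klr family 5 were higher and 1 lower, of 6 granzymes 4 were higher and 0 lower, and of 6 Serpinb genes, inhibitors of proteases, 3 were higher and 0 lower. Of 17 Tnfrsf genes 2 were higher and 6 lower, and of 48 genes starting with Il 3 were higher and 14 lower. The 8 Gimap genes, GTPases of lymphocyte survival, had 0 higher and 1 lower with values between -0.39 and 0.21. This share called was about the 12.5% over all genes. Of 25 survival and death genes, 2 were higher and 5 lower, and 3, 4, 2 and 4 were called without each library. The inflammatory caspases Casp4 (9:5308849 to 5336791) and Casp1 (9:5298517 to 5307281), which are neighbours on chromosome 9, had log2 fold changes of -1.79 and -1.11, and Casp4 had 166 and 202 CPM in STAT3KO CD4 and 50.1 and 56.4 CPM in STAT3KO CD8 libraries (edgeR adjusted p 0.000651). Bcl2 (-0.59) and Bcl2l1 (-0.76) were lower.

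Measured per length, the most abundant called genes differed by small factors. RPKM divides counts by exon length and library size. Tmsb4x, which encodes the actin sequestering peptide thymosin beta-4, had 7275 and 8039 RPKM in STAT3KO CD4 and 10067 and 9772 RPKM in STAT3KO CD8 libraries (0.37 on the log2 scale, SE 0.07, adjusted p 0.0164 by edgeR). It was not called on log2(RPKM + 1) (limma adjusted p 0.517). Lgals1, encoding galectin-1, had 1262 and 1327 against 2538 and 1944 RPKM (log2 fold change 0.79, edgeR adjusted p 0.00796), and the filament gene Vim had 518 and 568 against 879 and 917 RPKM (log2 fold change 0.72, edgeR adjusted p 0.00644). Thy1 (0.41) and Nkg7 (0.49) completed the 5 most abundant genes higher in CD8 T cells, and H2-K1, Itgb1, Shisa5 (-0.73), Srgn and Cd69 (-0.42) were the 5 most abundant lower ones. Of the S100, annexin and galectin genes, 5 of 21 were higher, led by Lgals3 (1.30), and Anxa1 (-1.05) was lower. The count was 1, 3, 5 and 4 without each library, and Anxa1 kept its call only without STAT3KO CD8 replicate 1 (edgeR adjusted p 0.019). Of the 10 most abundant genes, Shisa5 and Srgn kept their call without any 1 library, and Thy1, Nkg7 and Cd69 lost it without any 1 library. Tmsb4x lost its call in 3 of these 4 fits and Lgals1 in 2, and the call of Vim was lost only without STAT3KO CD4 replicate 1.

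**Figure D4:**
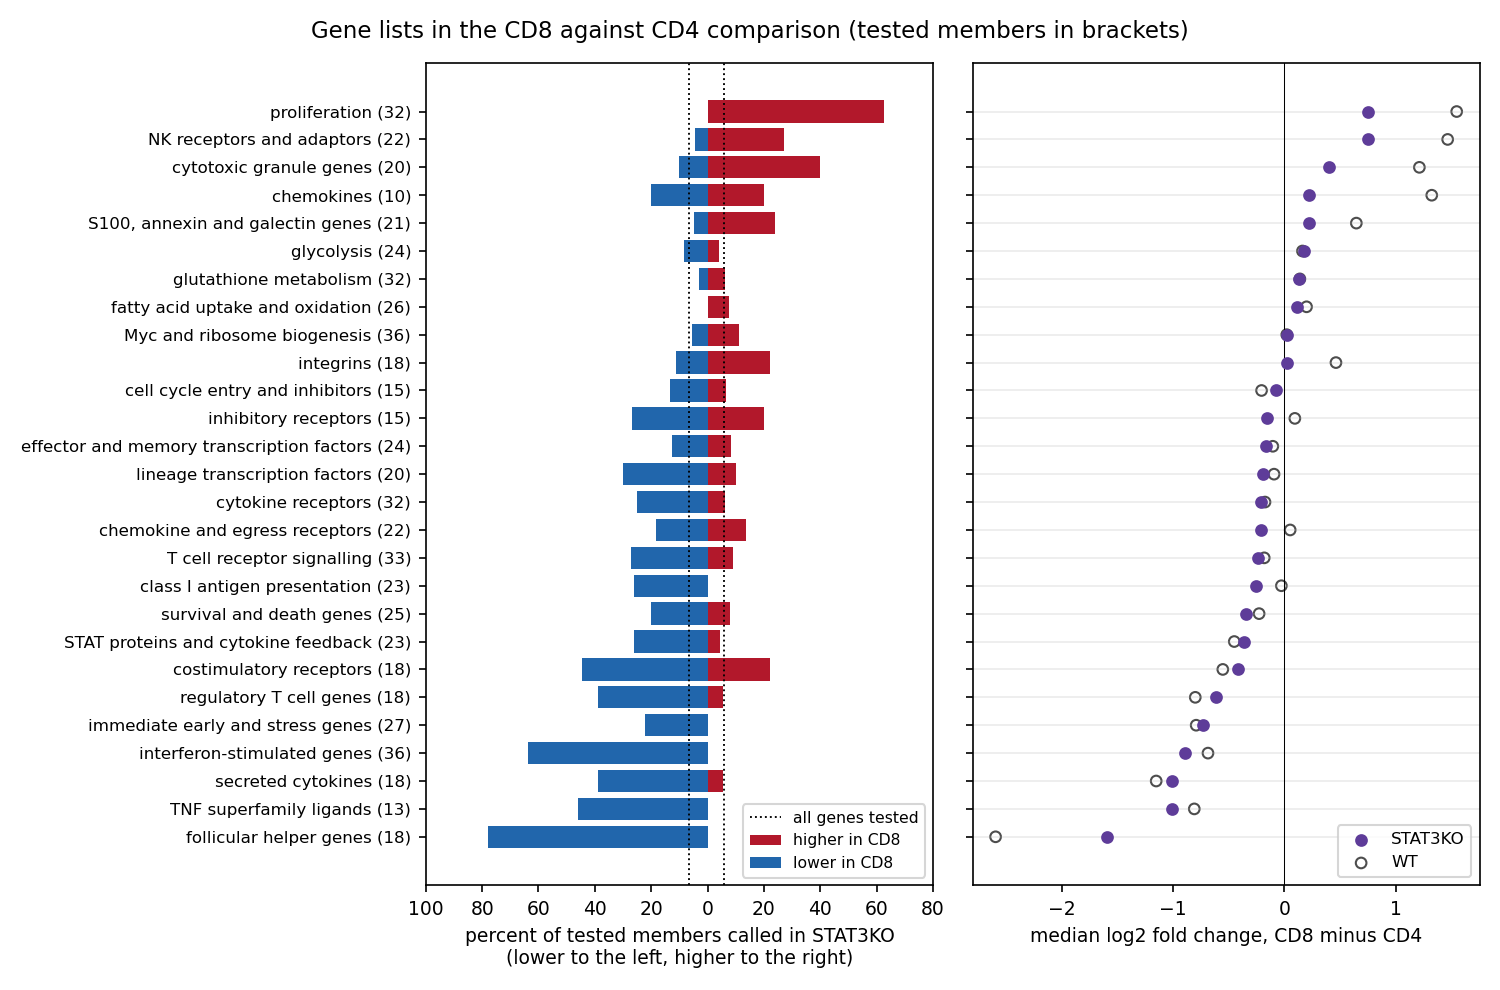
The 27 gene lists other than the coreceptors in STAT3KO CD8 against CD4 T cells. Left, percent of tested members called higher (red) or lower (blue) with the share over all genes as dotted lines (5.84% and 6.67%), and right, the median log2 fold change in STAT3KO (filled) and WT (open), which runs from -1.60 for follicular helper genes to 0.75 for proliferation in STAT3KO.

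The lineage difference was then set beside that of WT T cells. The WT means come from other libraries, but all 8 libraries share 1 estimate of the spread, and the STAT3KO count was 1344 and 1383 without WT CD8 replicate 1 and WT CD8 replicate 2. In WT T cells 2960 genes were called (23.8% of those tested), 1514 higher (12.2%) and 1446 lower (11.6%) in CD8. Of the 1555 genes called in STAT3KO, 1328 were called in the same direction in WT, 652 higher and 676 lower, which is 85.4% of the STAT3KO list and 44.9% of the WT list. Across all 12428 genes, which are not independent, Pearson r between the log2 fold changes of both genotypes was 0.80 and Spearman rho 0.757. Of the 225 genes called in STAT3KO and not in WT, 210 had the same sign in WT, and of the 1630 called in WT and not in STAT3KO, 1544 had the same sign in STAT3KO. A call in 1 genotype alone does not show that the genotypes differ. The count of 1328 was 434, 515, 497 and 595 without STAT3KO CD4 replicate 1, STAT3KO CD4 replicate 2, STAT3KO CD8 replicate 1 and STAT3KO CD8 replicate 2. The WT count was 1919 in the 4 WT libraries alone and 1546 without WT CD8 replicate 1.

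**Figure D5:**
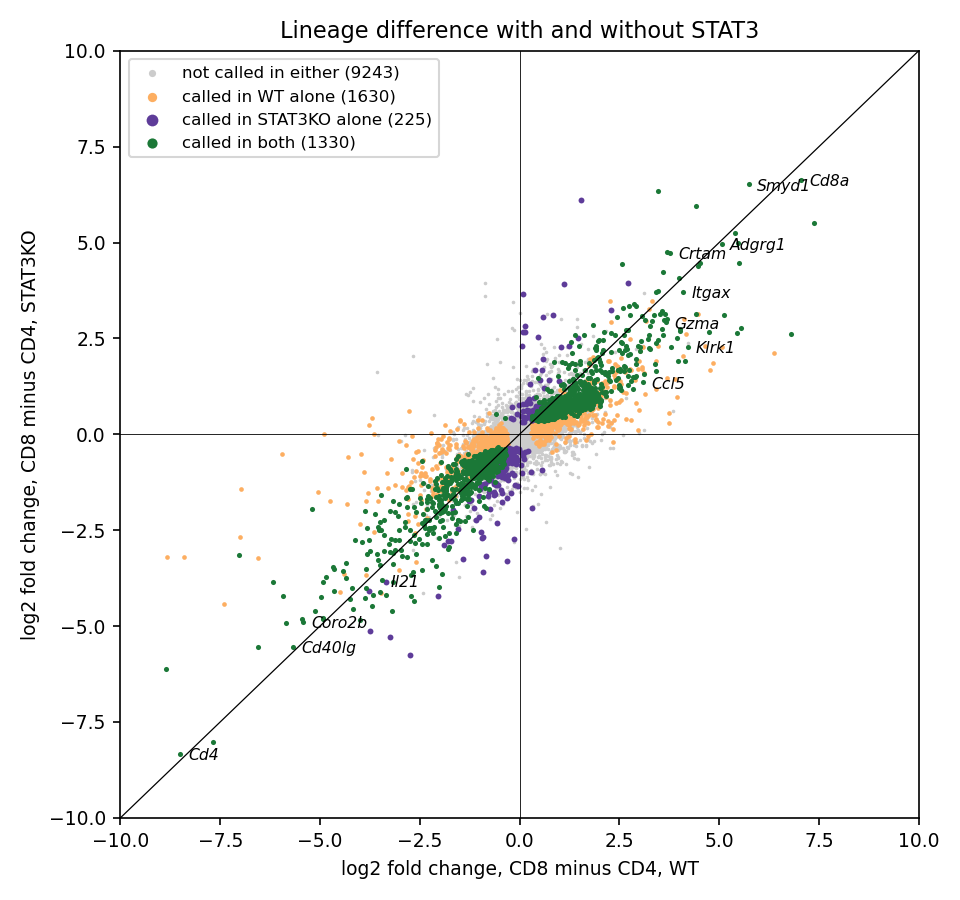
Log2 fold change of CD8 against CD4 T cells in WT (horizontal) and STAT3KO (vertical), 1 point per gene for 12428 genes, with the line of equal values. Genes called in both (1330, of which 1328 have the same direction) follow the line. Genes called in WT alone (1630) lie mostly between the line and the horizontal axis, a place that choosing them by a call in WT alone favours.

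The size of the difference can be read from genes chosen in 1 genotype and measured in the other. For the 1384 genes called and at least 2-fold apart in WT, the STAT3KO log2 fold change was a median of 0.628 times the WT value (quartiles 0.467 and 0.855), and it was smaller in absolute size for 1198 of them. For the 650 genes chosen in the same way in STAT3KO, the WT value was a median of 1.05 times the STAT3KO value (quartiles 0.812 and 1.35), and it was smaller for 286. Choosing a gene for a large value in 1 genotype favours a smaller value in the other, and the 2 directions of choice were not alike. By list, the medians in STAT3KO and WT were 0.75 and 1.55 for proliferation, 0.40 and 1.21 for cytotoxic granules, 0.75 and 1.47 for NK receptors and -1.60 and -2.59 for follicular helper genes. For interferon-stimulated genes they were -0.89 and -0.69, for secreted cytokines -1.01 and -1.15 and for lineage factors -0.19 and -0.093.

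A test of the difference between both lineage differences called 0 genes of 12428 (0%; edgeR quasi-likelihood test), with a smallest adjusted p of 0.0916, and 982 genes lay under 0.05 before adjustment. The replicate block called 403, DESeq2 188, the fit without a filter on low counts 44 and limma on log2(RPKM + 1) 13. Genes in each direction with the smallest unadjusted p are given as a description, since they were chosen for it. Ccl5 had 25.9 and 21.5 CPM in WT CD4 and 194 and 207 CPM in WT CD8 libraries, so its log2 fold change was 3.08 in WT and 1.35 in STAT3KO. Klrk1 had 11.7 and 12.2 against 244 and 199 CPM in WT, with 4.21 in WT and 2.28 in STAT3KO. Pls1 (2.84 and 1.18), Mxd3 (2.03 and 0.73), Ccnb2 (1.96 and 0.99) and Cdca3 (1.72 and 0.72) also had the larger value in WT. On the other side, Angptl2 had -2.74 in WT and -1.44 in STAT3KO, and Tspan5 -1.82 and -0.20. Stom, Pde2a and Zfp942 were called lower in WT CD8 T cells (-1.50, -0.93 and -0.81) and had 0.37, 0.38 and 0.17 in STAT3KO, where they were not called. Cd40lg (-5.68 and -5.54), Il21 (-3.45 and -3.81) and Crtam (3.78 and 4.73) had log2 fold changes of similar order in WT and STAT3KO, with an edgeR adjusted p of at least 0.63 for the difference.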

How the data were processed

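RNA of sorted donor T cells was sequenced in 8 libraries. The authors aligned single-end reads to mm10 with STAR and counted them per RefSeq gene with HTSeq-count. They deposited raw read counts, used here as the main data, and RPKM values (25078 genes each), used on a log2 scale as alternatives. The strand setting is not given in the sources used here, so overlapping genes on opposite strands cannot be told apart. Of 149 genes looked up in GENCODE M21, 39 share exon bases with a gene on the opposite strand and 10 with one on the same strand. The labels' growth, treatment and kit fields describe other material and were not used.

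From the counts, filterByExpr (minimum count 10) kept 12428 genes. All 8 libraries entered 1 edgeR 4.0.16 quasi-likelihood fit (R 4.3.3, TMM, 4 group means, no covariate), with Benjamini-Hochberg adjusted p under 0.05. Standard errors follow from the F statistic. On simulated counts for STAT3KO CD8 against CD4 (12428 genes), 82% of 100 genes changed 2-fold and 99% of 100 changed 4-fold were recovered, with 16 false calls. These counts were drawn independently for each library, without the deviations that same-numbered libraries share. The figures therefore describe that simulation and not the error of the real comparison. Alternatives used DESeq2 1.42.0 and limma 3.58.1 and left out each library. Named genes were the 12 highest and 12 lowest without overlap, the 5 most abundant per direction, up to 4 per list, 20 set genes and 6 per direction by interaction p. Other genes given with values are list members or neighbours chosen for position. Members, lists and rules were chosen with earlier results of these data known, and some lists hold genes the study discusses. Promoters came from RefSeq (GRCm38.p6), with 9836 of 12428 genes matched by symbol, chromosome and strand. Labels do not tie replicate numbers to shared animals, so p-values measure the spread between these pools. Some list members and named genes are not reported here.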

Additional observations from a re-analysis of the deposited data

Results flagged for a closer look

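The lineage difference pointed in opposite directions in STAT3KO and WT, with no overlap between CD8 and CD4 libraries in either genotype, for 5 genes among those called in both or named above. The difference between the lineage differences, on the log2 scale, was 1.87 for Stom, 1.31 for Pde2a, 1.14 for Pkp4, 0.98 for Zfp942 and 0.79 for Actn1, and none passed the edgeR interaction test (adjusted p 0.105, 0.105, 0.122, 0.105 and 0.126). Actn1 and Pkp4 were called in both genotypes and were chosen after their values were seen. Actn1, an actin crosslinker, had 148 and 140 CPM in STAT3KO CD4, 189 and 200 CPM in STAT3KO CD8, 202 and 191 CPM in WT CD4 and 153 and 153 CPM in WT CD8 libraries. Pkp4, a plakophilin of cell junctions, had 31.0 and 36.0, 48.5 and 48.9, 64.1 and 77.0, and 46.6 and 46.8 CPM in the same order. What sets these values was not tested.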

How the results depend on the processing

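The count of 1555 calls was 1978 under DESeq2, 1551 with RLE factors and 1599 with column totals. It was 1663 without a filter, 1604 at a minimum count of 50 and 1676 in the 4 STAT3KO libraries alone. On log2(RPKM + 1) and log2(RPKM + 0.1) it was 1474 and 1486. Of the 1555 genes, 1501 were also called in the same direction under DESeq2, 1364 on log2(RPKM + 1) and 1389 in the 4 STAT3KO libraries alone. The replicate block gave 3689 calls in STAT3KO (1789 higher, 1900 lower), 5232 in WT, 2966 called in the same direction in both and 403 for the interaction. Deviations of same-numbered libraries correlated (0.424 to 0.671 between groups, 0.642 between STAT3KO CD4 and CD8). In the sample titles, the leading numbers also fall into separate runs for replicate 1 and replicate 2. The labels do not say what these runs mark, so the block is given only as an alternative. The main fit has no block and counts these shared deviations as spread between replicates. The interaction count was 188 under DESeq2, 44 without a filter and 13 on log2(RPKM + 1), and the WT count was 1919 in the 4 WT libraries alone. Leaving out 1 STAT3KO library gave 457 to 645 calls in STAT3KO (174 to 266 higher, 277 to 379 lower), and leaving out 1 WT library 1344 to 1554. Leaving out 1 WT library gave 1546 to 2297 calls in WT. Leaving out any 1 of the 8 libraries gave 0 to 0 for the interaction and 434 to 1196 called in the same direction in both. Many of the 129 named genes called in STAT3KO lost the call in fits without 1 STAT3KO library, and none changed direction under any alternative. In fits without 1 STAT3KO library, the lack of overlap between the groups all but fixed the direction. Among 15 named genes not called, leaving out 1 STAT3KO library turned the sign of 6, whose log2 fold changes ranged from -0.226 to 0.024 (Stat3), -0.009 to 0.412 (Runx3), -0.338 to 0.332 (Tbx21), -0.337 to 0.528 (Foxp3), -0.025 to 0.728 (Fasl) and -0.633 to 0.565 (Myc). Of these, Tbx21 was at -0.338 without STAT3KO CD8 replicate 1 and at -0.193 without STAT3KO CD4 replicate 2, and Myc was at 0.565 without STAT3KO CD4 replicate 1 and at 0.146 without STAT3KO CD8 replicate 2. The cause of these shifts was not tested. Genes near the floor of 3 counts are limited by depth.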
